A study of Mus musculus with 12 samples.

Results

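The genes described here are 10 imprinted genes, many of them with known roles in growth. H19, Cdkn1c and Meg3 are expressed from the maternal allele, and Igf2, Plagl1, Ndn, Sgce, Peg3, Mest and Dlk1 from the paternal allele. The 10 genes were chosen by symbol from known imprinted genes, with earlier results of these data known. Each symbol was matched to its Ensembl identifier in the count tables, which list 37991 identifiers in all. All 10 were found and all 10 passed the filter on low counts, which left 15098 genes. RNA had been sequenced from embryonic fibroblasts of the mouse (connective tissue cells cultured from embryos) in 12 libraries of 4 genotypes. Male embryos of strain C57BL/6N at stage E15.5 (embryonic day) gave the cells, which were harvested at passage 4 and 80% confluency, with no treatment named. The genotypes, with 3 libraries each, were wild type (WT), Ing1-/- (Ing1 KO), Gadd45a-/- (Gadd45a KO) and Gadd45a-/-;Ing1-/- (double knockout, DKO), all obtained by interbreeding mice deficient in each gene. Ing1 encodes a chromatin reader and Gadd45a a stress-induced protein linked to DNA repair and demethylation. Whether the libraries of a genotype came from separate embryos is not said in the labels, so each p-value below measures the spread between libraries only.

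An imprinted gene is transcribed from only 1 parental copy, the choice being set by DNA methylation laid down in the egg or sperm at a control region and kept through later cell divisions. Many such genes sit in clusters in which genes of opposite parental expression neighbour each other, such as H19 beside Igf2 and Meg3 beside Dlk1. Paternally expressed genes such as Igf2, which encodes a fetal growth factor, often promote growth, and maternally expressed genes such as Cdkn1c, which encodes a cyclin-dependent kinase inhibitor, often restrain it. Plagl1 encodes a zinc finger transcription factor known to regulate other imprinted genes. In these bulk libraries the 2 parental alleles were not told apart, and fewer cells expressing a gene cannot be told apart from less RNA per cell.

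Ing1 RNA was at 50.4 to 54.5 CPM (the usual depth-scaled count, with TMM-normalised library sizes) in the libraries labelled WT and Gadd45a KO and at 0.916 to 1.42 CPM in those labelled Ing1 KO and DKO. Gadd45a went against its label, at 16.7 to 21.3 CPM in the libraries labelled WT and Ing1 KO and at 75.9 to 132 CPM in those labelled Gadd45a KO and DKO. Which part of Gadd45a was removed is not in the labels, and every statement on those 2 groups below therefore concerns the libraries as labelled. Gene counts ran from 31493168 to 42852059 per library. All 10 fibroblast markers examined were at 1 CPM or more, with a summed level of 58859 to 71869 CPM in every library. Macrophage markers (14 of 14 at 1 CPM or more) summed to 239 to 413 CPM in the WT, 319.7 to 559 CPM in Ing1 KO, 127 to 496 CPM in the libraries labelled Gadd45a KO and 2039.7 to 2548 CPM in those labelled DKO. Adipocyte markers (4 of 7) summed to 221 to 258 CPM in the WT, 55.4 to 91.3 CPM in Ing1 KO, 196 to 203 CPM in the libraries labelled Gadd45a KO and 124 to 156 CPM in those labelled DKO. Most of that sum was Lpl, and the defining fat cell genes Adipoq, Plin1 and Cidec were at or near 0. Cartilage markers (3 of 6) summed to 27.0 to 35.8 CPM in the WT and 38.9 to 88.7 CPM in Ing1 KO, where Col2a1 was at a mean of 27.6 against 4.93 CPM and Acan at 13.1 against 1.07 CPM, and they were at 34.2 to 40.4 CPM and 31.6 to 36.3 CPM in the libraries labelled Gadd45a KO and DKO. Epithelial markers (4 of 7) summed to 5.54 to 7.07 CPM in the WT, 8.4 to 12.9 CPM in Ing1 KO, 5.54 to 7.9 CPM in the libraries labelled Gadd45a KO and 8.53 to 10.5 CPM in those labelled DKO, with Epcam near 0. In the libraries labelled DKO, Schwann cell and neuron markers (5 of 8, at 154 to 194 CPM) and endothelial markers (3 of 8, at 9.42 to 10.6 CPM) also lay above the WT (124 to 136 CPM and 8.09 to 8.77 CPM). Hepatocyte markers were under 1 CPM throughout. The part of these marker levels in the results below was not tested.

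Reference promoter windows were available for 7 of the 10 genes (RefSeq, build GRCm38.p6, from 250 bases before to 50 after a transcript start). They are shown for 5 genes because these differ in their response below, 2 of them falling wherever Ing1 was absent (Plagl1 and Mest), 1 falling in the libraries labelled DKO (Ndn) and the others not called against the WT (Peg3 and Meg3). Capitals mark exact matches on either strand to TGCCGC (the core recognised by ZFP57, which protects methylated imprints), GGGGCCCC (a core bound by PLAGL1), TATAAA and CCAAT, each of which may overlap another. All are written 5′ to 3′ on the strand of the gene.
Plagl1, chr10:13090582-13090881, plus strand: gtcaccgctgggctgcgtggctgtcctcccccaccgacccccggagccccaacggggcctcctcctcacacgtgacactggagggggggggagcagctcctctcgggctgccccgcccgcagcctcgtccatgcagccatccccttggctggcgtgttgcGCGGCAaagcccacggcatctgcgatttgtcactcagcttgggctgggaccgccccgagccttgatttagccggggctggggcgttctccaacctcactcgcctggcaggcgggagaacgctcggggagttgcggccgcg
Mest, chr6:30737800-30738099, plus strand: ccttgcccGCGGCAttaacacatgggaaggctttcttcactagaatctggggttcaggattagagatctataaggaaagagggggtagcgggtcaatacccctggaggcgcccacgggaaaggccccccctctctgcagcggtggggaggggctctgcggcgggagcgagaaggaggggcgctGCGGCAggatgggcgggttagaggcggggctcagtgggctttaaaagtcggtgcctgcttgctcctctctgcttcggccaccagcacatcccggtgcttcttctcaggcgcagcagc
Ndn, chr7:62348027-62348326, plus strand: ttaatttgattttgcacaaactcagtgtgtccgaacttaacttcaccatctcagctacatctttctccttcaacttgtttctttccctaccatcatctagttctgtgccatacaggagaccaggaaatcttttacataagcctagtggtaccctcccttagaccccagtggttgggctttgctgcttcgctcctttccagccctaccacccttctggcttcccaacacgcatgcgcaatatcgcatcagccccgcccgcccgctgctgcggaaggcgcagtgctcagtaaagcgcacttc
Peg3, chr7:6730370-6730669, minus strand: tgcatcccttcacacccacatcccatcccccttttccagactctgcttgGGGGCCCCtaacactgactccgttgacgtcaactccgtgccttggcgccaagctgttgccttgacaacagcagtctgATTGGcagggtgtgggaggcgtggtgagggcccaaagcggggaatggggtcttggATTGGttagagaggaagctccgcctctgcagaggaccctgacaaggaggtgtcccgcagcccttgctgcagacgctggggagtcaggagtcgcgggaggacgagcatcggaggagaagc
Meg3, chr12:109540746-109541045, plus strand: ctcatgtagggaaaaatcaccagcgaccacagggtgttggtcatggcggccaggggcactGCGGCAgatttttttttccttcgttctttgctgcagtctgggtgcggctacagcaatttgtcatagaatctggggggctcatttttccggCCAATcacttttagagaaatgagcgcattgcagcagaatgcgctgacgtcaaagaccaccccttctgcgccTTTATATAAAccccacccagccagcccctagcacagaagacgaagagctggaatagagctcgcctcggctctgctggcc

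The Plagl1 window held 26 CpG dinucleotides and that of Mest 17, against 11 for Ndn, 13 for Peg3, 13 for Meg3 and a median of 7 over the 32851 windows in the reference table. TGCCGC was present once in the Plagl1 and Meg3 windows and at 2 places in that of Mest, and it occurred in 11.6% of all windows. Among the 13 windows of the 7 genes, 5 held it, including overlapping windows of Mest and 1 window of Igf2 that is not printed. The Peg3 window held the only match to GGGGCCCC among the 13 windows of the 7 genes (1.08% of all windows), with 2 matches to CCAAT (37.4%). In the Meg3 window, 2 overlapping matches to TATAAA on opposite strands (13.6%) lay shortly before the transcript start. No motif of these was found in the Ndn window. Among windows not printed, 1 of Igf2, which was not called in any comparison, held 24 CpG dinucleotides, another of Mest held 8, and that of Dlk1, which fell in Ing1 KO, held 9. These are descriptions of a few windows and carry no test.

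In the WT, the members covered a wide range of levels. Per kilobase of annotated exon, H19 was highest at 1395 CPM per kb, followed by Igf2 at 154 CPM per kb. Cdkn1c (67.7), Meg3 (58.6), Mest (39.1) and Peg3 (38.3 CPM per kb) formed the middle of the order. Dlk1 (27.1), Ndn (27.0), Plagl1 (22.4) and Sgce (6.82 CPM per kb) were the lowest. All 10 genes together took 0.376% to 0.726% of the gene counts of a library, the lowest share being in Ing1 KO replicate 3.

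Loss of Ing1, as labelled, went with lower RNA of Cdkn1c, Plagl1, Dlk1, Mest and Sgce. At an edgeR adjusted p under 0.05, 1 of 3 maternally expressed members (Cdkn1c) and 4 of 7 paternally expressed members (Plagl1, Dlk1, Mest, Sgce) were lower than in the WT, and none was higher. Of all 15098 genes tested, 23.5% were called in that comparison, 11.4% as lower and 12.1% as higher. The median log2 fold change was -0.33 over the maternally expressed and -0.39 over the paternally expressed members, against 0 over all genes. Among the libraries labelled DKO the same count, 1 of 3 and 4 of 7, was lower than in the WT, against a background of 25.9% of genes called, 10.3% as lower and 15.6% as higher. The members called there were Cdkn1c, Plagl1, Mest, Sgce and Ndn, with medians of -0.21 (maternally expressed) and -0.42 (paternally expressed) against 0.01 over all genes. In the libraries labelled Gadd45a KO, 0 of 10 members were called by edgeR and 0 by DESeq2, and 1 (Ndn) had an unadjusted edgeR p under 0.05, as did 8.82% of all genes. At the adjusted threshold 0.00662% of all genes were called in that comparison. The 3 comparisons share the WT libraries. Without WT replicate 2 or without Ing1 KO replicate 2, only 3 members were called between Ing1 KO and WT (Mest and Dlk1 lost their calls), and the genes called over the whole table fell from 3543 to 2113 and 1858. Without Ing1 KO replicate 3, in which H19 and Igf2 were low, 5 members were called, with Peg3 gained and Dlk1 lost. Without DKO replicate 3, also low in both genes, 4 were called between the libraries labelled DKO and the WT, with Cdkn1c lost.

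**Figure D1:**
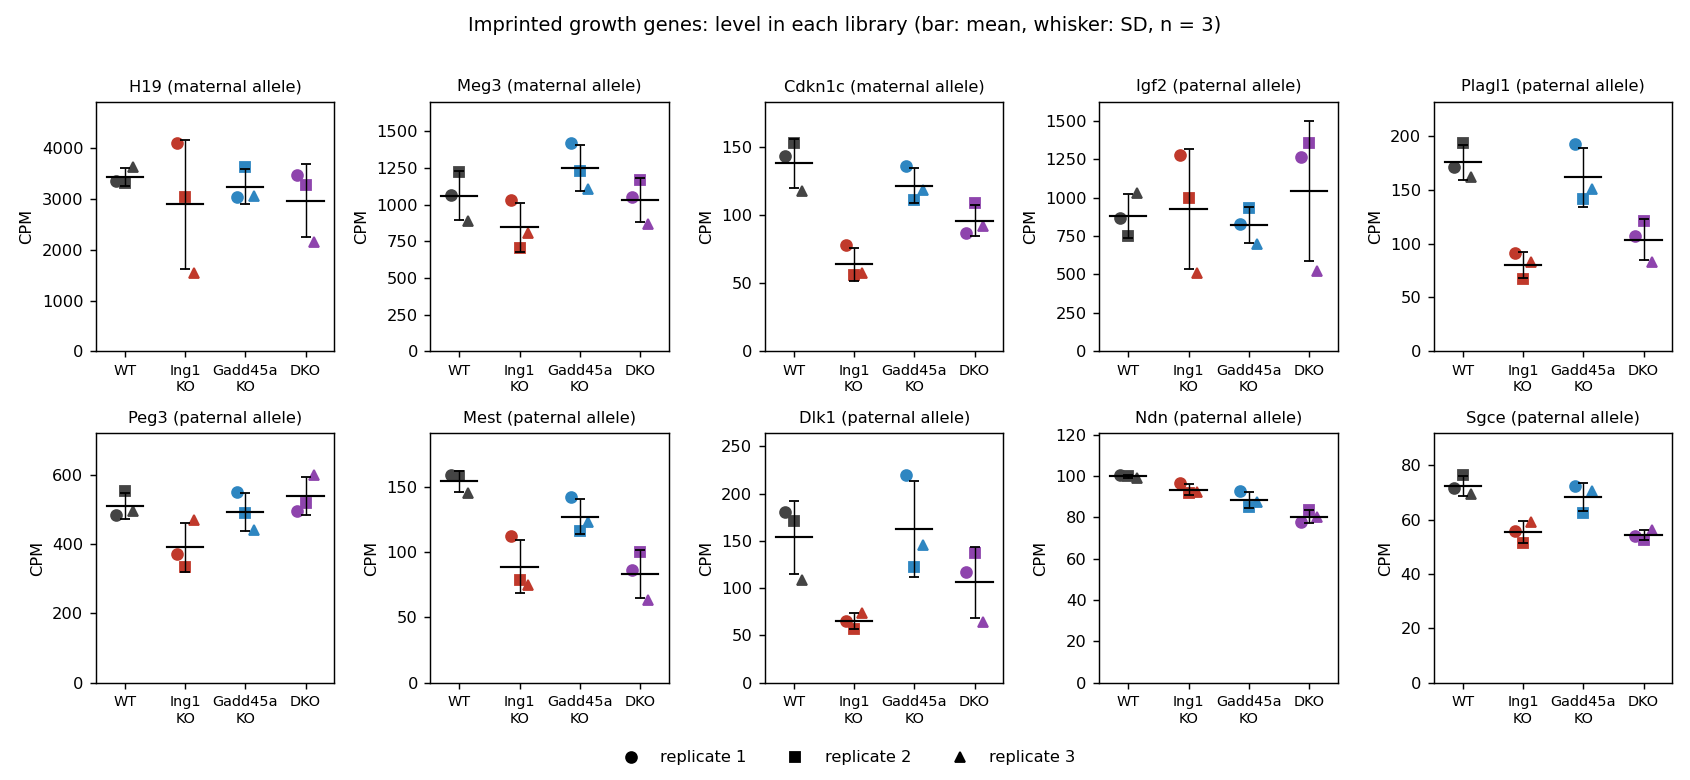
Level of each of the 10 genes (CPM, linear axis from 0) in each of the 12 libraries, by genotype label, with the mean and SD of 3 libraries. Cdkn1c, Plagl1, Mest, Dlk1 and Sgce sit below every WT library in all 3 Ing1 KO libraries, as do Peg3 and Ndn, which were not called there. How many of all genes lay apart in this way was not counted. Of all genes tested, 36.3% had an unadjusted edgeR p under 0.05 in that comparison. The H19 and Igf2 panels show 1 low library (replicate 3) in Ing1 KO and 1 in the libraries labelled DKO.

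**Figure D2:**
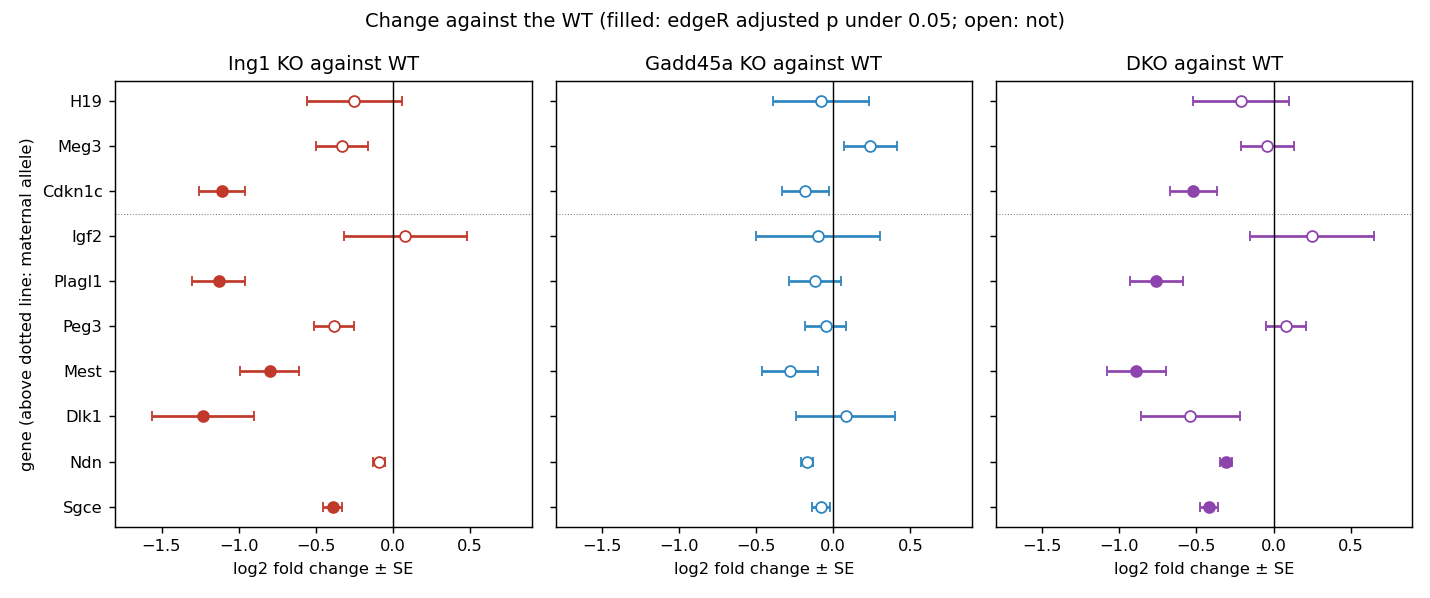
The log2 fold change ± SE of each gene against the WT, in Ing1 KO, in the libraries labelled Gadd45a KO and in those labelled DKO. Filled points passed an edgeR adjusted p under 0.05, which holds for 5 genes in Ing1 KO, 0 in the libraries labelled Gadd45a KO and 5 in those labelled DKO.

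Among the maternally expressed genes, Cdkn1c fell and H19 and Meg3 were not called. Cdkn1c (ENSMUSG00000037664, chromosome 7) encodes a cell cycle inhibitor that restrains growth of the embryo and placenta. Its RNA was at 144, 153 and 118 CPM in the WT and at 78, 56.3 and 57.4 CPM in Ing1 KO. It was at 136, 111 and 119 CPM in the libraries labelled Gadd45a KO and at 87, 109 and 92.2 CPM in those labelled DKO. Every library without Ing1 was below every library with it, and the 3 labelled DKO were above the 3 of Ing1 KO. Against the WT, the log2 fold change was -1.11 ± 0.15 (SE) in Ing1 KO (edgeR adjusted p = 0.00116), or 2.16-fold lower, and this call was kept in all 17 alternative analyses (adjusted p 1.5e-14 to 0.00913). Cdkn1c was at -0.52 ± 0.15 in the libraries labelled DKO (edgeR adjusted p = 0.0296), or 1.44-fold lower. The latter call was lost without WT replicate 1 (-0.49) or 2 (-0.44), without DKO replicate 1 (-0.46) or 3 (-0.50) and with no filter on low counts (-0.53), with edgeR adjusted p of 0.0716 to 0.103 in these 5 and of 0.00053 to 0.103 over all alternatives. An annotated antisense transcript, Gm44732, overlaps Cdkn1c by 625 bases of exon, and the library kit does not mark strand.

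H19 (ENSMUSG00000000031, chromosome 7) is a long non-coding RNA and the most abundant member. It stood at 3349, 3309 and 3634 CPM in the WT and at 4097, 3031 and 1552 CPM in Ing1 KO. It stood at 3042, 3635 and 3057 CPM in the libraries labelled Gadd45a KO and at 3474, 3286 and 2153 CPM in those labelled DKO. The WT libraries lay close together, whereas Ing1 KO spread on both sides of them, so the groups overlapped. Neither change of H19 was called, at a log2 fold change of -0.25 ± 0.31 in Ing1 KO and -0.21 ± 0.31 in the libraries labelled DKO (edgeR adjusted p = 0.618 and 0.677). Leaving out Ing1 KO replicate 3 turned the former to 0.06 (adjusted p = 0.884, over all alternatives 0.206 to 0.884).

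Meg3 (ENSMUSG00000021268, chromosome 12) is a long non-coding RNA of the cluster that holds Dlk1. It was at 1066, 1225 and 889 CPM in the WT and at 1029.6, 701 and 805 CPM in Ing1 KO. The values were 1417, 1232 and 1105 CPM in the libraries labelled Gadd45a KO and 1050.4, 1169.5 and 869 CPM in those labelled DKO. All groups overlapped the WT, and the log2 fold changes of -0.33 ± 0.17, 0.24 ± 0.17 and -0.04 ± 0.17 were not called (edgeR adjusted p = 0.21, 0.727 and 0.89). Between Ing1 KO and the libraries labelled Gadd45a KO, which did not overlap, the log2 difference was -0.57 ± 0.17 (edgeR adjusted p = 0.06). That difference was called with the replicate block (-0.56, adjusted p = 0.0323), with DESeq2 (-0.55) and without Ing1 KO replicate 1 (-0.73), with adjusted p of 0.0219 to 0.206 over all alternatives. An annotated non-coding RNA on the other strand, Gm26906, overlaps Meg3 by 1228 bases of exon, and the library kit does not mark strand.

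Of the paternally expressed genes, Plagl1, Mest, Dlk1 and Sgce fell in Ing1 KO, while Ndn, Peg3 and Igf2 were not called there. Plagl1 (ENSMUSG00000019817, chromosome 10), the zinc finger factor introduced above, was at 171, 193 and 162 CPM in the WT and at 91.3, 66.9 and 82.5 CPM in Ing1 KO. It was at 192, 141 and 151 CPM in the libraries labelled Gadd45a KO and at 107, 121 and 83.2 CPM in those labelled DKO. The 6 libraries without Ing1 lay below the 6 with it. Against the WT, Plagl1 was 2.19-fold lower in Ing1 KO (log2 fold change -1.13 ± 0.17, edgeR adjusted p = 0.00197) and 1.69-fold lower in the libraries labelled DKO (-0.76 ± 0.17, adjusted p = 0.00973). Both calls were kept in all 17 alternatives, at -1.23 to -1.01 (adjusted p 5.76e-13 to 0.011) and -0.89 to -0.63 (adjusted p 1.54e-06 to 0.0379).

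Mest (ENSMUSG00000051855, chromosome 6) encodes a membrane protein of the alpha/beta hydrolase fold that is known to be high in fetal mesoderm and growing fat. Its RNA stood at 159, 158 and 145 CPM in the WT and at 112, 78.8 and 75.1 CPM in Ing1 KO. It stood at 142, 116 and 123 CPM in the libraries labelled Gadd45a KO and at 86.6, 99.7 and 63.6 CPM in those labelled DKO. No library of the other 3 labels reached the lowest WT library. Mest fell, with a log2 fold change of -0.80 ± 0.19 in Ing1 KO (edgeR adjusted p = 0.0142) and -0.89 ± 0.19 in the libraries labelled DKO (adjusted p = 0.00745), and the value was -0.28 ± 0.18 in those labelled Gadd45a KO (adjusted p = 0.704). The first was lost without WT replicate 2 (-0.78, adjusted p = 0.0506) or Ing1 KO replicate 2 (-0.72, adjusted p = 0.0644), its adjusted p being 0.000615 to 0.0644 over the alternatives, and the second was kept in all of them. Mest shares 912 bases of exon with Copg2 on the other strand. Copg2 itself was not called, at -0.08 ± 0.04 in Ing1 KO and -0.10 ± 0.04 in the libraries labelled DKO (edgeR adjusted p = 0.167 and 0.0823).

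Dlk1 (ENSMUSG00000040856, chromosome 12) encodes a transmembrane protein related to Notch ligands that is known to hold preadipocytes undifferentiated. It was at 181, 171 and 109 CPM in the WT and at 65.2, 57.1 and 73.9 CPM in Ing1 KO. The libraries labelled Gadd45a KO were at 219.9, 122 and 146 CPM and those labelled DKO at 117, 137 and 64.4 CPM. Ing1 KO lay below the WT without overlap, whereas the libraries labelled DKO overlapped both. Dlk1 was 2.35-fold lower in Ing1 KO (log2 fold change -1.23 ± 0.33, edgeR adjusted p = 0.027), and in the libraries labelled DKO the change of -0.54 ± 0.32 was not called (adjusted p = 0.269). The call in Ing1 KO was lost without WT replicate 1 (-1.10) or 2 (-1.15), without Ing1 KO replicate 1 (-1.23), 2 (-1.14) or 3 (-1.33) and with no filter on low counts (-1.22), with edgeR adjusted p of 0.051 to 0.105 in these 6 and 0.00133 to 0.105 over all alternatives.

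Sgce (ENSMUSG00000004631, chromosome 6) encodes epsilon-sarcoglycan, a membrane protein whose loss causes a movement disorder. It was at 71.6, 76.4 and 69.3 CPM in the WT, at 55.9, 51.3 and 59.2 CPM in Ing1 KO, at 72.2, 62.4 and 70.4 CPM in the libraries labelled Gadd45a KO and at 54.1, 52.4 and 56 CPM in those labelled DKO. The 6 libraries without Ing1 were below the 6 with it and overlapped each other. The fall was modest and even, at -0.39 ± 0.06 in Ing1 KO and -0.42 ± 0.06 in the libraries labelled DKO (edgeR adjusted p = 0.00137 and 0.000634), and both calls were kept in all 17 alternatives.

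Ndn (ENSMUSG00000033585, chromosome 7) encodes necdin, a protein that restrains cell proliferation. The WT libraries were at 100.5, 100 and 98.8 CPM and Ing1 KO at 96.4, 91.8 and 92.1 CPM. Ndn was at 92.8, 84.9 and 87.4 CPM in the libraries labelled Gadd45a KO and at 77.5, 83.5 and 79.9 CPM in those labelled DKO. Each mutant group lay below the WT with no overlap, and the libraries labelled DKO were lowest of all. The log2 fold change was -0.09 ± 0.04 in Ing1 KO, -0.17 ± 0.04 in the libraries labelled Gadd45a KO and -0.31 ± 0.04 in those labelled DKO, with edgeR adjusted p of 0.136, 0.423 and 0.000339. The interaction, which is the change in DKO less the sum of the changes in both single groups, was -0.04 ± 0.06 for Ndn (edgeR adjusted p = 0.66). The call in the libraries labelled DKO was kept in all 17 alternatives.

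Peg3 (ENSMUSG00000002265, chromosome 7) encodes a large zinc finger protein linked to maternal care and cell death. It was at 483, 552 and 495 CPM in the WT and at 370.1, 333 and 469 CPM in Ing1 KO. It was at 550.2, 488 and 441 CPM in the libraries labelled Gadd45a KO and at 495, 519 and 599 CPM in those labelled DKO. Ing1 KO lay below the WT without overlap, and the libraries labelled DKO did not. For Peg3 in Ing1 KO, the log2 fold change was -0.38 ± 0.13 (edgeR adjusted p = 0.0547). It was called with DESeq2 (-0.38, adjusted p = 0.00819), without Ing1 KO replicate 3 (-0.54, adjusted p = 0.00512), without Gadd45a KO replicate 1 (-0.39, adjusted p = 0.0479) and without DKO replicate 3 (-0.39, adjusted p = 0.0493), with adjusted p of 0.00512 to 0.181 over all alternatives. Against that, Peg3 was at 0.08 ± 0.13 in the libraries labelled DKO (edgeR adjusted p = 0.709).

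Igf2 (ENSMUSG00000048583, chromosome 7), the growth factor whose gene lies next to H19, was not called in any comparison. It stood at 867, 748 and 1029 CPM in the WT and at 1279, 999 and 508 CPM in Ing1 KO. It stood at 831, 934 and 697 CPM in the libraries labelled Gadd45a KO and at 1262, 1353 and 520.1 CPM in those labelled DKO. In Ing1 KO and in the libraries labelled DKO alike, replicate 3 lay below every WT library and replicate 1 above every one. Igf2 had a log2 fold change of 0.08 ± 0.40 in Ing1 KO and 0.25 ± 0.40 in the libraries labelled DKO (edgeR adjusted p = 0.919 and 0.705). Without Ing1 KO replicate 3 the former was 0.37, and without DKO replicate 3 the latter was 0.56, neither of them called (adjusted p = 0.547 and 0.286, over all alternatives 0.547 to 0.986 and 0.286 to 0.989). An antisense transcript, Igf2os, shares 98 bases of exon with Igf2 and was at a log2 fold change of 0.70 ± 0.28 in Ing1 KO (edgeR adjusted p = 0.09).

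H19 and Igf2 varied more between the libraries of Ing1 KO, and between those labelled DKO, than most genes of 50 CPM or more. The SD of log2 CPM in Ing1 KO was 0.72 for H19 and 0.69 for Igf2, against a median of 0.06 over 4191 genes of 50 CPM or more, of which 99.9% and 99.8% had a smaller SD. In the libraries labelled DKO it was 0.38 and 0.77, and 0.57 for Dlk1, against a median of 0.05. In the WT the SD of H19, at 0.07, was near the median of 0.06. Ndn, at 0.01, was steadier there than all but 3.36% of those genes. Igf2 (0.23), Meg3 (0.23), Cdkn1c (0.2) and Dlk1 (0.4) were widely spread in the WT as well. The shares of genes with a smaller SD there were 98.6%, 98.7%, 97.7% and 99.7%, against at most 89.8% (Plagl1) for the other members. Wide spread was thus not confined to the libraries without Ing1. Within a library H19 and Igf2 moved together, being lowest in the same libraries, Ing1 KO replicate 3 and DKO replicate 3. Both libraries also had the lowest summed level of skeletal muscle markers of their group, at 37.1 CPM against 74.4 and 68 CPM in Ing1 KO and at 32.6 CPM against 67.2 and 50.1 CPM in those labelled DKO. That sum was nearly all Des, 1 of 10 markers at 1 CPM or more, and the defining myoblast genes Myod1, Myf5, Myog and Pax7 were at or near 0. Cartilage markers were at 88.7, 84.2 and 38.9 CPM in Ing1 KO, again lowest in replicate 3. In the libraries labelled DKO they were at 36.3, 31.6 and 35.2 CPM, lowest in replicate 2. Schwann cell and neuron markers were lowest in replicate 3 of both groups (124 and 154 CPM). Fibroblast, endothelial and epithelial sums were lowest in replicate 3 of Ing1 KO but not of the libraries labelled DKO. Macrophage and adipocyte sums were instead highest in replicate 3 of Ing1 KO (559 and 91.3 CPM). Among the libraries labelled DKO, replicate 3 had the lowest macrophage sum (2039.7 CPM) and the middle adipocyte sum (140.3 CPM). The part of these markers in the spread of H19 and Igf2 was not tested.

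**Figure D3:**
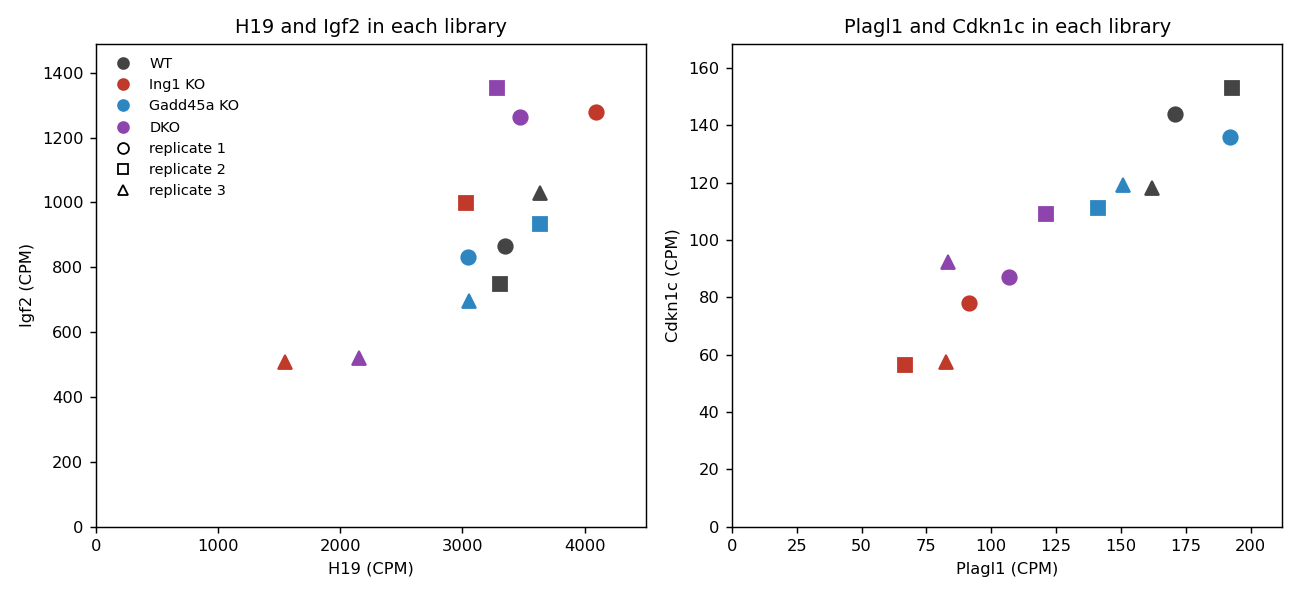
Levels of 2 pairs of genes in each of the 12 libraries (CPM on both axes, colour for genotype label and shape for replicate). On the left, H19 and Igf2 are both low in replicate 3 of Ing1 KO (1552 and 508 CPM) and of the libraries labelled DKO (2153 and 520.1 CPM). On the right, the 6 libraries labelled as lacking Ing1 lie at lower Plagl1 and Cdkn1c than the other 6.

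The ratio of H19 to Igf2 counts was 3.87, 4.43 and 3.53 in the WT and 3.20, 3.03 and 3.05 in Ing1 KO. Ratios of 3.66, 3.89 and 4.39 were found for the label Gadd45a KO and of 2.75, 2.43 and 4.14 for the label DKO. Ing1 KO lay below the WT without overlap, and its 3 libraries had a narrow range of ratios despite their spread of levels. With 3 libraries against 3, an exact two-sided permutation test cannot give a p under 0.1, and it gave 0.1 for Ing1 KO, 0.9 for the libraries labelled Gadd45a KO and 0.3 for those labelled DKO. The ratio of Meg3 to Dlk1 counts, the other pair of neighbours with opposite parental expression, was 5.90, 7.18 and 8.14 in the WT and 15.8, 12.3 and 10.9 in Ing1 KO. For the label Gadd45a KO the ratios were 6.44, 10.1 and 7.58 and for the label DKO 8.99, 8.56 and 13.5. Both groups without Ing1 lay above the WT (exact permutation p = 0.1 each, the smallest possible), and the libraries labelled Gadd45a KO overlapped it (p = 0.5). Over these 6 exact permutation tests the smallest Benjamini-Hochberg adjusted p was 0.2.

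The groups labelled as lacking Ing1 were set against each other to see whether the members differed with the Gadd45a label. At an edgeR adjusted p under 0.05, 2 of 10 members (Cdkn1c and Peg3) were higher and 1 (Ndn) was lower in the libraries labelled DKO than in Ing1 KO, against 24.8% of all genes called (14.9% higher and 9.88% lower). Cdkn1c was 1.51-fold higher (log2 difference 0.59 ± 0.15, edgeR adjusted p = 0.0196), Peg3 was 1.38-fold higher (0.46 ± 0.13, adjusted p = 0.0254) and Ndn was 1.16-fold lower (-0.22 ± 0.04, adjusted p = 0.00343). The Ndn call was kept in all 17 alternatives. That of Cdkn1c was lost without Ing1 KO replicate 2 (0.51) or 3 (0.52), without DKO replicate 2 (0.49), with no filter (0.57) and with the 2 groups fitted alone (0.57). That of Peg3 was lost without Ing1 KO replicate 1 (0.42) or 2 (0.36), without DKO replicate 2 (0.48) or 3 (0.37), with no filter (0.44) and with the 2 groups fitted alone (0.44). Macrophage markers, given above, were also higher in the libraries labelled DKO than in Ing1 KO, and their part in these differences was not tested.

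Against the libraries labelled Gadd45a KO, 4 of 10 members were lower in those labelled DKO (Plagl1, Mest, Sgce and Ndn), where 26.4% of all genes were called, 10.6% as lower and 15.8% as higher. The log2 differences were -0.64 for Plagl1, -0.61 for Mest, -0.33 for Sgce and -0.14 for Ndn (edgeR adjusted p = 0.0221, 0.039, 0.00239 and 0.0329). The call of Sgce held in all 17 alternatives. That of Mest was lost in 10 of 17, namely without any 1 of the WT replicates (-0.61 each), without Gadd45a KO replicate 1 (-0.52), 2 (-0.69) or 3 (-0.63), without DKO replicate 1 (-0.64) or 3 (-0.45), with no filter (-0.63) and with the 2 groups fitted alone (-0.61), at edgeR adjusted p of 0.0515 to 0.13. Plagl1 lost its call in 4, without Gadd45a KO replicate 1 (-0.49), without DKO replicate 1 (-0.66) or 3 (-0.50) and with the 2 groups fitted alone (-0.64), at adjusted p of 0.0562 to 0.0771. Ndn lost its call in 5, without Gadd45a KO replicate 1 (-0.10) or 3 (-0.15), without DKO replicate 1 (-0.11) or 3 (-0.14) and with the 2 groups fitted alone (-0.14), at adjusted p of 0.0502 to 0.148. In Ing1 KO against the libraries labelled Gadd45a KO, 4 of 10 members were lower (Cdkn1c, Plagl1, Sgce and Dlk1), where 14.1% of all genes were called, 7.3% as lower and 6.78% as higher. The log2 differences were -0.93 for Cdkn1c, -1.01 for Plagl1, -0.30 for Sgce and -1.31 for Dlk1 (edgeR adjusted p = 0.00482, 0.00604, 0.00946 and 0.0321). Without Ing1 KO replicate 2, 2 members were called. Dlk1 lost its call without Gadd45a KO replicate 1 (-1.03) or 3 (-1.39), without Ing1 KO replicate 1 (-1.31), 2 (-1.22) or 3 (-1.41) and with no filter (-1.31), and Sgce lost it without Ing1 KO replicate 2 (-0.25).

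The interaction was called for 1 of 10 members, Cdkn1c, and for 17.8% of all genes (10.4% above 0 and 7.4% below). For Cdkn1c it was 0.77 ± 0.21 on the log2 scale (edgeR adjusted p = 0.0367), the fall with loss of Ing1 being smaller in libraries also labelled as lacking Gadd45a. This call was lost in 9 of 16 alternatives, namely without WT replicate 1 (0.74) or 2 (0.69), Gadd45a KO replicate 2 (0.69) or 3 (0.75), Ing1 KO replicate 2 (0.69) or 3 (0.70), DKO replicate 2 (0.67) or 3 (0.80) and with no filter on low counts (0.74), at edgeR adjusted p of 0.059 to 0.0959 (0.000897 to 0.0959 over all 16). For Peg3 it was 0.51 ± 0.18 (edgeR adjusted p = 0.0787), and this was called with DESeq2 (0.50) and without Ing1 KO replicate 3 (0.66), with adjusted p of 0.0111 to 0.216 over the alternatives. Of the other 8 members, Dlk1 (0.61 ± 0.46) and Plagl1 (0.49 ± 0.24) had the largest values, with edgeR adjusted p of 0.396 and 0.186.

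Ranked by group mean, 5 members (H19, Cdkn1c, Plagl1, Sgce and Mest) ran from the WT down to the libraries labelled Gadd45a KO and then to the groups without Ing1. The neighbours in that order differed beyond their spread (edgeR adjusted p under 0.05) at 1 step each for Cdkn1c, between the libraries labelled DKO and Ing1 KO, for Plagl1, between those labelled Gadd45a KO and DKO, and for Sgce, between those labelled Gadd45a KO and Ing1 KO. Ndn ran from the WT over Ing1 KO and the libraries labelled Gadd45a KO to those labelled DKO, with the last step called. No step between neighbours was called for H19, Meg3, Igf2, Peg3, Mest or Dlk1.

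Genes of the same imprinted domains were placed beside the members after their values had been seen. Their parental expression is given as listed and was not measured in these fibroblasts. In the Kcnq1 domain of chromosome 7, maternally expressed Slc22a18, an organic cation transporter, fell with Cdkn1c, by 1.01 on the log2 scale in Ing1 KO and by 1.76 in the libraries labelled DKO (edgeR adjusted p = 0.014 and 0.000792), although its WT level was only 2.64 CPM. Tssc4 of that domain rose in Ing1 KO by 0.29 ± 0.07 (adjusted p = 0.00719), and Osbpl5, a lipid transfer protein gene, was at 0.13 ± 0.05 (adjusted p = 0.112). In the libraries labelled DKO, Tssc4 was at -0.07 ± 0.07 (edgeR adjusted p = 0.445) and Osbpl5 fell by 0.17 on the log2 scale (adjusted p = 0.0338). In the Dlk1-Dio3 domain of chromosome 12, paternally expressed Rtl1 fell by 1.01 in Ing1 KO (edgeR adjusted p = 0.00896), close to Dlk1, while Dio3 was at 0.19 ± 0.38 (adjusted p = 0.762). Rtl1 was not called in the libraries labelled DKO, at -0.43 ± 0.23 (edgeR adjusted p = 0.191). Rtl1, derived from a retrotransposon, has an antisense RNA from the maternal allele that counts without strand cannot separate. Beside Peg3, maternally expressed Zim1 fell by 0.53 in Ing1 KO and stood at 0.16 in the libraries labelled DKO (edgeR adjusted p = 0.0147 and 0.405). Beside Mest, maternally expressed Klf14 fell by 1.25 in Ing1 KO (edgeR adjusted p = 0.0328) at a WT level of 0.32 CPM. Beside Sgce, Peg10 was not called, at -0.05 ± 0.12 in Ing1 KO and -0.29 ± 0.12 in the libraries labelled DKO (edgeR adjusted p = 0.827 and 0.105). Ppp1r9a of that domain was not called either, at -0.38 ± 0.18 and -0.26 ± 0.18 (edgeR adjusted p = 0.145 and 0.312). Of the domain of Ndn, Mkrn3, Peg12 and Ube3a were tested and were not called in any comparison with the WT. In Ing1 KO the called genes of the Kcnq1 domain thus moved in opposite directions, whereas the 3 called in the libraries labelled DKO all fell, and the genes that fell in Ing1 KO beside Peg3 and Mest were of the opposite parental expression.

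**Figure D4:**
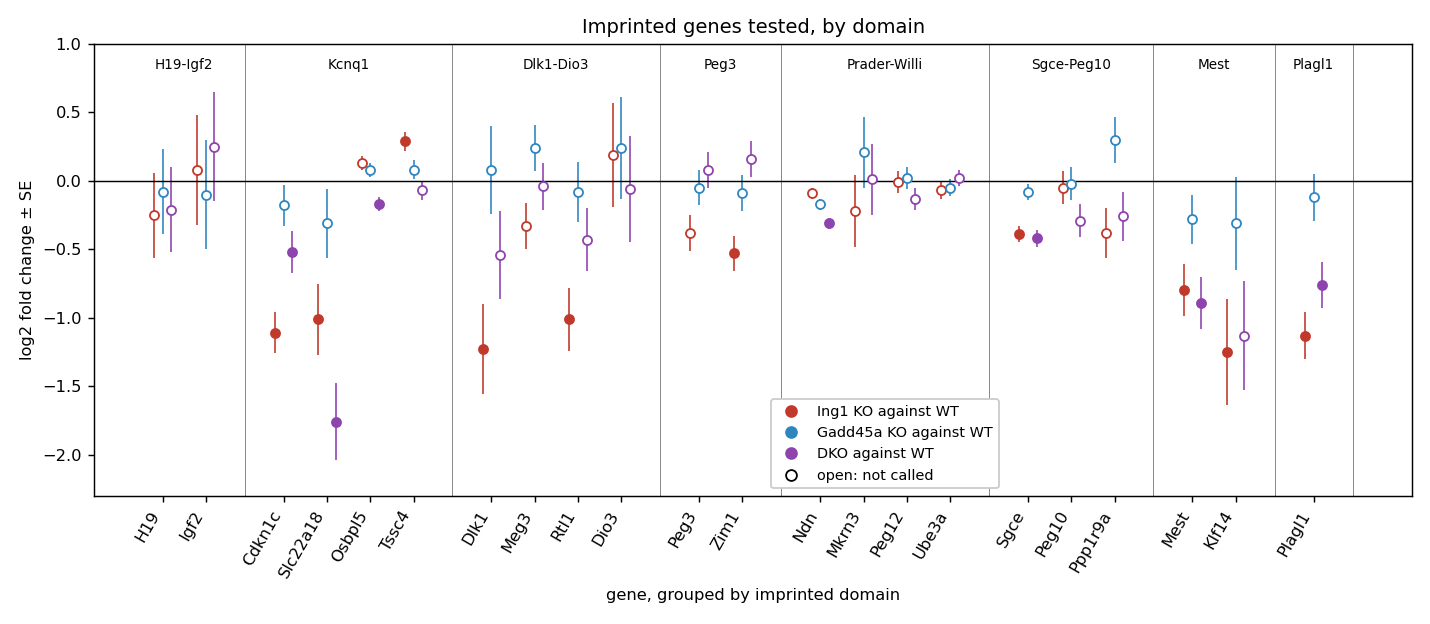
The log2 fold change ± SE against the WT for imprinted genes that passed the filter, grouped by domain, with filled points for an edgeR adjusted p under 0.05. Slc22a18 falls with Cdkn1c and Rtl1 with Dlk1, while Tssc4 rises in Ing1 KO and Peg10 beside Sgce is not called.

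Over a wider list of imprinted genes the changes went both ways. Maternally and paternally expressed again refer to the list, as the allele used in these fibroblasts was not measured. Of all genes tested, 23.5% were called in Ing1 KO (12.1% higher, 11.4% lower). In the libraries labelled DKO, 25.9% were called (15.6% higher, 10.3% lower). Of 11 other maternally expressed genes tested, 2 rose (Tssc4 and H13) and 3 fell (Slc22a18, Klf14 and Zim1) in Ing1 KO, with a median log2 fold change of -0.02, and 2 fell in the libraries labelled DKO (Slc22a18 and Osbpl5), with a median of -0.07. H13, a signal peptide peptidase gene, rose by 0.18 ± 0.04 in Ing1 KO (edgeR adjusted p = 0.00416). Of 12 other paternally expressed genes, 1 rose (Sfmbt2) and 2 fell (Nap1l5 and Rtl1) in Ing1 KO, with a median of -0.03, and in the libraries labelled DKO Nnat rose and Nap1l5 fell, with a median of -0.04. Sfmbt2, a Polycomb group gene, rose by 0.62 ± 0.12 in Ing1 KO, where Nap1l5, a nucleosome assembly protein gene, fell by 0.69 on the log2 scale (edgeR adjusted p = 0.00381 and 0.00551). Nnat, which encodes neuronatin, rose by 0.87 ± 0.17 in the libraries labelled DKO (edgeR adjusted p = 0.0031). In the libraries labelled Gadd45a KO, edgeR and DESeq2 called 0 genes of either list, and 0 had an unadjusted p under 0.05, against 8.82% of all genes.

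Of 13 genes, namely Igf1 and 12 for receptors, mRNA binding proteins and carriers of IGF2, 2 rose and 2 fell in Ing1 KO (Igfbp3 and Igf1), 2 rose and 1 fell in the libraries labelled DKO, and 0 were called in those labelled Gadd45a KO by edgeR or DESeq2 (1 at an unadjusted p under 0.05, against 8.82% of all genes). Over all genes tested, 23.5% were called in Ing1 KO and 25.9% in the libraries labelled DKO. Igfbp3, which encodes a secreted carrier of IGFs, was at 307 CPM in the WT, 97.3 CPM in Ing1 KO and 128 CPM in the libraries labelled DKO, a fall of 3.16-fold and 2.41-fold (edgeR adjusted p = 0.00326 and 0.00833). Igf1, which encodes the other growth factor of the family, fell from 208 to 79.3 CPM in Ing1 KO (log2 fold change -1.39 ± 0.27, edgeR adjusted p = 0.00678). Igf1r, the signalling receptor, rose by 0.30 ± 0.05 in Ing1 KO (edgeR adjusted p = 0.00194). Igf2bp3, an mRNA binding protein, rose by 0.24 ± 0.04 in the libraries labelled DKO (edgeR adjusted p = 0.000827), and Igf2bp1 rose in both groups without Ing1 (0.20 ± 0.06 and 0.25 ± 0.06, adjusted p = 0.0259 and 0.00789). Igf2 itself was not called in either, as given above.

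Cdkn1c was set beside 5 other cyclin-dependent kinase inhibitor genes, of which 2 rose in Ing1 KO (Cdkn1a and Cdkn2a), 1 rose (Cdkn2c) and 1 fell (Cdkn2b) in the libraries labelled DKO, and 0 were called in those labelled Gadd45a KO by edgeR or DESeq2 (1, Cdkn2c, at an unadjusted p under 0.05, against 8.82% of all genes). The share called over all genes was 23.5% in Ing1 KO and 25.9% in the libraries labelled DKO. Cdkn2a, a tumour suppressor gene known to rise in cultured fibroblasts as they age, rose from 36.6 to 55.5 CPM in Ing1 KO (log2 fold change 0.60 ± 0.10, edgeR adjusted p = 0.00138), the direction opposite to Cdkn1c. Cdkn1a, a target of p53, rose by 0.40 ± 0.08 (edgeR adjusted p = 0.00525). In the libraries labelled DKO, Cdkn2c rose by 0.40 ± 0.06 and Cdkn2b fell by 0.43 on the log2 scale (edgeR adjusted p = 0.00067 and 0.000907).

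Genes that keep imprints in place were examined as a further list. Of 14 tested, 1 rose (Uhrf1) and 1 fell (Zfp445) in Ing1 KO, 4 rose in the libraries labelled DKO (Uhrf1, Dnmt1, Hells and Smchd1), and 0 were called in those labelled Gadd45a KO by edgeR or DESeq2 (0 at an unadjusted p under 0.05). Among all genes tested, 23.5% were called in Ing1 KO and 25.9% in the libraries labelled DKO. In those labelled Gadd45a KO, 8.82% of all genes had an unadjusted edgeR p under 0.05. Uhrf1, which brings the maintenance methyltransferase to replicating DNA, was at 37.2 CPM in the WT, 44.5 CPM in Ing1 KO and 56.7 CPM in the libraries labelled DKO (edgeR adjusted p = 0.0167 and 9.91e-05). Dnmt1, the methyltransferase itself, rose by 0.33 ± 0.05 in the libraries labelled DKO, and Hells, a chromatin remodeller needed for DNA methylation, by 0.41 ± 0.08 (edgeR adjusted p = 0.000425 and 0.00251). Zfp445, which binds imprinting control regions, fell by 0.15 in Ing1 KO (edgeR adjusted p = 0.0171).

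The pattern of each member over the 12 libraries was compared with 11655 genes by the root mean square difference of log2 CPM after each gene's own mean had been subtracted. The nearest gene to Cdkn1c was Brdt at 0.124, followed by Gstt1 at 0.134, and Plagl1 was the nearest member, ranked 7 at 0.171. For Plagl1 they were Vstm4 (0.105) and Kcne4 (0.134), with Cdkn1c ranked 10. Dlk1 was nearest to Col8a2 (0.201) and Map2 (0.233), with Plagl1 ranked 4. For Igf2 the nearest were Mtus2 (0.243) and Cyp1b1 (0.249), with H19 ranked 3 at 0.262, whereas the nearest to H19 were Arsi (0.154) and Spon2 (0.159), with Igf2 ranked 48. Peg3 was nearest to Trim25 (0.092) and then to its chromosomal neighbour Zim1 (0.108). The remaining pairs were Enpp4 (0.128) and Ptx3 (0.160) for Mest, Ankrd24 (0.098) and Tle2 (0.099) for Meg3, Zhx3 (0.059) and Ercc6l2 (0.061) for Ndn, and Dpy19l1 (0.053) and Pts (0.053) for Sgce. These distances describe the 12 libraries, whose genotype differences and depths all genes share, and carry no test.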

How the data were processed

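RNA was measured as counts per gene, which the authors deposited as 1 table per library with 37991 identifiers and 5 summary lines. Per the submitters' processing notes, TopHat2 2.0.9, Bowtie2 2.1.0, HTSeq 0.5.4 and DESeq were used with mm9 (NCBIM37), the strand setting being not given in the sources used here. Summary lines, 23.89% to 24.91% of listed reads, were left out. Symbols came from a GENCODE annotation and promoters from RefSeq, both of another build (GRCm38), so exon lengths and overlaps are approximate. Of 68 further list symbols 62 were matched, and the other 6 were not analysed here.

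One model of 12 libraries and 4 groups was fitted with edgeR 4.0.16 in R 4.3.3 (TMM, filterByExpr, robust quasi-likelihood, two-sided tests), with 8 residual degrees of freedom and a biological coefficient of variation of 8.2%. A gene was called at a Benjamini-Hochberg adjusted p under 0.05 over 15098 genes. The script was tested on simulated counts. CPM uses TMM-scaled library sizes, and log2 CPM a prior count of 2. Alternatives were DESeq2 1.42.0, RLE size factors, no filter, a replicate block, groups compared alone and each library left out. Members and lists were chosen with earlier results of these data known.

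All members are named, with Ing1 and Gadd45a, up to 3 called genes of smallest adjusted p per list, and the 2 nearest genes in pattern (mean of 2 CPM or more). Klf14, Zim1, Osbpl5, Tssc4, Rtl1, Dio3, Peg10, Igf1, Igf2bp1, Cdkn1a, Smchd1, Zfp445, Igf2os and Copg2 were added after their values were seen, unless named by that rule. So were Ppp1r9a, Mkrn3, Peg12 and Ube3a. Same-numbered WT and Gadd45a KO libraries deviated from their group means with r = 0.34, 0.11 and 0.13 over genes. WT replicates 2 and 3 each correlated equally with Gadd45a KO replicates 2 and 3 (0.11 and 0.13). The data thus set apart only replicate 1 of those groups by its number. The block changed no call of a member in that comparison.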

Additional observations from a re-analysis of the deposited data

Results flagged for a closer look

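The effect of Ing1 loss on Cdkn1c was called as differing with the Gadd45a label. The same call was made for 1 of 10 members and for 17.8% of all genes. The interaction was 0.77 ± 0.21 on the log2 scale (edgeR adjusted p = 0.0367). Cdkn1c fell by 1.11 on the log2 scale from the WT to Ing1 KO, and the difference between the libraries labelled DKO and Gadd45a KO was -0.34 ± 0.15. The call was lost without WT replicate 1 (0.74) or 2 (0.69), without Gadd45a KO replicate 2 (0.69) or 3 (0.75), without Ing1 KO replicate 2 (0.69) or 3 (0.70), without DKO replicate 2 (0.67) or 3 (0.80) and with no filter on low counts (0.74), with edgeR adjusted p of 0.059 to 0.0959 in these 9 and of 0.000897 to 0.0959 over all 16 alternatives. The sign was the same in all 16. Macrophage markers, at 2039.7 to 2548 CPM in the libraries labelled DKO and at most 559 CPM elsewhere, also differed with both labels, and their part was not tested.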

How the results depend on the processing

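Of 1180 values of a member under an alternative, 1106 kept their call or lack of one, 59 lost it, 15 gained it and 0 called values changed sign. DESeq2 called 27 genes in the Gadd45a KO comparison with the WT and 2 members in the interaction. With no filter on low counts, 1 member was called in DKO against Ing1 KO and 0 in the interaction. With the groups compared fitted alone, 0 genes were called in Gadd45a KO against WT, 1271 genes in Ing1 KO against Gadd45a KO, and 1 member each in DKO against Ing1 KO and DKO against Gadd45a KO; the interaction could not be fitted that way.

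Leaving out each of the 12 libraries in turn gave 1858 to 3553 genes and 3 to 6 members for Ing1 KO against WT, 1 to 13 genes and 0 members for Gadd45a KO against WT, and 2754 to 4106 genes and 4 to 5 members for DKO against WT. It gave 2249 to 3862 genes and 1 to 3 members for DKO against Ing1 KO, 2679 to 4186 genes and 1 to 4 members for DKO against Gadd45a KO, 760 to 2227 genes and 2 to 5 members for Ing1 KO against Gadd45a KO, and 1300 to 3285 genes and 0 to 1 member for the interaction. The fewest genes for Ing1 KO against WT were found without Ing1 KO replicate 2. Fewer samples entered these fits, and no other cause was tested.

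With the replicate block the comparisons gave, in the same order, 3434, 1, 3824, 3589, 3856, 1921 and 2514 genes and 5, 0, 5, 3, 4, 5 and 1 members. The only member whose call changed was Meg3 in Ing1 KO against Gadd45a KO. Apart from WT with Gadd45a KO, same-numbered libraries correlated at r from -0.18 to 0.21, and libraries of unlike number at up to 0.18. Of the 12 libraries, 5 correlated best with one of their own number. Depth did not limit the members, the lowest of which had 1659 counts in a library.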
